A study of Danio rerio with 4 samples.

Results

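The genes of the lysosomal proteases and of the proton pump that acidifies the lysosome were described in cells of the adult zebrafish heart, collected 6 h after cryoinjury or sham injury. Members were taken by symbol alone: every gene whose symbol starts with cts and a letter (cathepsins), with atp6v (subunits of the vacuolar proton pump, V-ATPase) or with lamp and a digit, together with lgmn (legumain) and naga. The rule found 43 of the 31466 genes in the count tables, 22 in the cathepsin group (cathepsins, lgmn, naga and Lamp genes) and 21 in the proton pump group. The rule itself uses symbols and no measured value.

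Lysosomes break down material that a cell has taken up or wants to recycle. The V-ATPase pumps protons into the lumen with energy from ATP: its V1 part faces the cytosol and splits ATP, and its V0 part sits in the membrane and carries the protons. The low pH lets cathepsins mature and cut proteins, and macrophages, which engulf dead cells and debris, are known for a large lysosomal compartment.

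All hearts came from adult zebrafish of genotype AB and were dissociated, fixed in methanol and treated with iodoacetamide before capture on the 10x Genomics platform, so these steps were shared by both groups. The fish, sham and injured alike, had received 4-thiouridine, which marks newly made RNA, before the operation. There were 2 sham libraries and 2 cryoinjured libraries, each from pooled hearts, and the counts summed marked and unmarked RNA. The study's methods describe the samples as biologically and experimentally separate. P-values of cryoinjured against sham within a class of cells measure the spread between these pools. Comparisons between cell classes or cell states had library as a covariate, and their p-values measure the spread left once library differences are removed.

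Sequencing gave 86891164 to 136777379 unique molecular identifiers (UMIs, each standing for 1 captured transcript) per library, and 10456 to 13895 cells per library were used. Library cryoinjured 2 stood apart, with 46.4% of its barcodes over the limit of 50% mitochondrial UMIs, against 15.7% to 20.01% in the other libraries. Sham 1 and cryoinjured 1 shared 293 barcodes, 1.83% of the smaller library, and the other pairs of libraries shared 84 to 128. Among macrophage-like cells 0 barcodes were shared. Cells were clustered and named from marker genes with all 43 members left out, so that the members' levels had no part in setting the classes. The 9 classes compared were cells like macrophages, neutrophils, erythrocytes, atrial and ventricular cardiomyocytes, endocardium, smooth muscle, epicardium and fibroblasts, each named with the ending -like.

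The macrophage-like class held 1756 cells (242 and 717 in sham 1 and sham 2, 207 and 590 in cryoinjured 1 and cryoinjured 2). The class was named from a list of 13 macrophage markers, among them mpeg1.1, grn1 and c1qc, of which 6 passed the naming rule. Shares of the same list describe the class and are no separate check of its name. None of the 13 was at 0, and together they took 0.253% to 0.515% of the class's UMIs, against at most 0.0472% in a library of any other class tested. Hemoglobin and other erythrocyte markers took 0.564% to 5.70% of the UMIs in macrophage-like cells, and ventricular cardiomyocyte markers took 0.485% to 0.821%, so RNA from other cells was present in the class and its part in the levels below was not tested. Fewer UMIs per cell of a gene and fewer cells that make it cannot be told apart in these sums.

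Of the 43 members, 2 entries named ctslb had 0 UMIs in the classified cells and 8 others had fewer than 100, among them ctso, ctsbb and atp6v1c2. The members together gave 129540 UMIs, of which 22614 were in macrophage-like cells. UMIs were summed per library and class, and 32 members (15 of the cathepsin group and 17 of the proton pump group) passed the filter on low counts and were tested. A high level in a single class was enough to pass, so the counts below describe those 32 and not all 43.

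Most of the tested members were highest in macrophage-like cells. Across the 9142 genes tested, 42.1% differed between macrophage-like cells and the mean of the 8 other classes at an adjusted p under 0.05, 23% higher and 19.1% lower (edgeR quasi-likelihood test with library as a covariate, Benjamini-Hochberg adjustment). Of the 32 members, 25 were higher, 3 were lower and 4 did not pass. In the cathepsin group 12 of 15 were higher and 2 lower, with a median log2 fold change of 2.27, and in the proton pump group 13 of 17 were higher and 1 lower, with a median of 1.93. The median over all genes tested was -0.08. Among the 9 classes, 21 of the 32 had their highest mean level in macrophage-like cells, and 19 of these were highest there in each of the 4 libraries. How many of all genes tested had their highest level there was not counted.

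**Figure D1:**
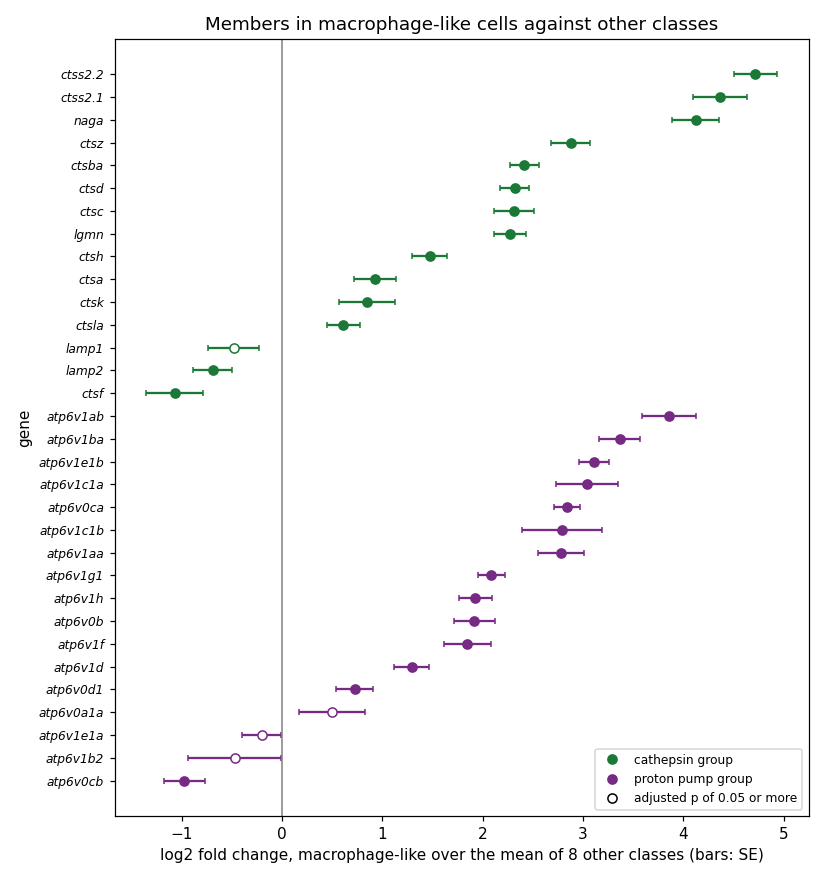
Log2 fold change (x axis) of each of the 32 tested members in macrophage-like cells over the mean of the 8 other classes, with bars of 1 standard error. Filled points passed an adjusted p under 0.05, and 25 of them lie to the right of 0 and 3 to the left.

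Among the cysteine cathepsins, ctsba (ENSDARG00000055120), the zebrafish gene for cathepsin B, reached 62.3, 106, 82.4 and 151 CPM in macrophage-like cells of sham 1, sham 2, cryoinjured 1 and cryoinjured 2. CPM here are UMIs per 1000000 UMIs of the class in that library after edgeR's composition scaling, and all levels in this order of libraries use that scale. In epicardium-like cells, the next class, ctsba stood at 39.5, 20.2, 26.6 and 61.8 CPM. Every macrophage-like value lay above every value of the other classes, though by little between sham 1 and the epicardium-like cells of cryoinjured 2. The log2 fold change over the other classes was 2.42 (SE 0.14, adjusted p 8.57e-23, edgeR). In cells thinned to 1000 UMIs each, 8% to 16.9% of macrophage-like cells held a ctsba UMI, against 0.353% to 0.760% of erythrocyte-like cells. Erythrocyte markers took 26.5% to 43.1% of the UMIs in erythrocyte-like cells, which leaves fewer for other genes. Whether their ctsba UMIs came from free RNA was not tested.

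The aspartic protease gene ctsd (cathepsin D) was at 53.7, 100.2, 69.1 and 143 CPM in macrophage-like cells, and at most 41.5 CPM in any library of the 3 next classes. It was 4.99-fold higher than in the other classes (log2 fold change 2.32, SE 0.15). Legumain, encoded by lgmn, cuts after asparagine and is known in mammals to process cathepsins to their mature forms. Its level was 45.3, 92.3, 45.4 and 160.2 CPM, against 7.82, 24.5, 22.0 and 48.2 CPM in endocardium-like cells. Within each library the macrophage-like level was thus the higher, while across libraries the lowest macrophage-like value and the highest endocardium-like value overlapped (log2 fold change over all other classes 2.27, SE 0.16).

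The largest fold changes of the cathepsin group belonged to ctss2.2 and ctss2.1, related to mammalian cathepsin S, which trims the invariant chain of MHC class II in antigen-presenting cells. ctss2.2 was at 13.9, 37.0, 16.05 and 35.2 CPM in macrophage-like cells and at 1.90, 4.29, 1.31 and 10.4 CPM in neutrophil-like cells, the next class. Its log2 fold change over the other classes was 4.72 (SE 0.22, adjusted p 6.91e-28, edgeR). The levels of these classes did not overlap. In a cluster led by cd74a that was left unnamed and entered no test, ctss2.2 was at 24.0, 19.3, 36.1 and 47.3 CPM, above macrophage-like cells in 3 of 4 libraries.

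Its neighbour ctss2.1 differed in that its level in neutrophil-like cells came closer to that in macrophage-like cells. ctss2.1 was at 35.8, 70.2, 44.0 and 122 CPM in macrophage-like cells, and neutrophil-like cells had 33.3, 24.5, 16.4 and 90.1 CPM. Each class was above the mean of the rest (log2 fold change 4.36, SE 0.27, for macrophage-like and 3.44, SE 0.33, for neutrophil-like cells, edgeR), and their direct contrast did not pass (log2 fold change 0.82, SE 0.42, adjusted p 0.226). ctss2.1 made up 72.1% ± 5.05 (SD, n = 4) of the UMIs of the pair in macrophage-like cells against 90.5% ± 4.12 in neutrophil-like cells, ranges that did not overlap. In the RefSeq annotation of assembly GRCz12tu, ctsk, ctss2.1 and ctss2.2 follow each other with 0 genes between neighbours, and reads that fit both ctss2 genes may have been assigned unevenly.

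naga, the enzyme that removes terminal N-acetylgalactosamine from sugar chains, was at 5.86, 14.7, 11.2 and 37.5 CPM in macrophage-like cells. It was higher than the other classes by 4.12 on the log2 scale (SE 0.23). ctsz, a carboxypeptidase, was at 10.8, 37.8, 11.9 and 37.5 CPM (log2 fold change 2.88, SE 0.19). For both genes the second library of each group was the higher, whichever the group.

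ctsh, an aminopeptidase, was at 10.5, 30.1, 13.96 and 59.4 CPM in macrophage-like cells, and its level in epicardium-like cells was close in sham 1 (9.97 CPM) and cryoinjured 1 (12.7 CPM). Macrophage-like cells were its highest class in 3 of 4 libraries, and it was 2.77-fold above the other classes. Of the remaining members that were higher, ctsc, which in mammals activates the serine proteases of granules, had a log2 fold change of 2.31 and the carboxypeptidase gene ctsa 0.93.

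ctsla (ENSDARG00000007836), a cathepsin L gene and the member with the most UMIs in the data (29477), had another order. It was highest in endocardium-like cells, the lining of the heart chambers, at 201, 254, 220.2 and 204 CPM. Macrophage-like cells followed at 88.2, 106, 80.3 and 179 CPM, and erythrocyte-like cells stood at 94.2, 101, 69.1 and 96.9 CPM. On this composition-scaled CPM the endocardial values lay above those of all other classes, whereas the macrophage-like and erythrocyte-like ranges overlapped. The scaling factors, by which CPM are divided, were 0.279 to 0.676 in erythrocyte-like and 0.976 to 1.49 in macrophage-like cells. As a plain share of UMIs every macrophage-like value of ctsla lay above every erythrocyte-like value. On that share macrophage-like and endocardium-like cells were about level in cryoinjured 2. ctsla was 3.33-fold higher in endocardium-like cells than in the other classes (log2 fold change 1.74, SE 0.15, adjusted p 8.51e-16, edgeR) and 2.00-fold lower in macrophage-like than in endocardium-like cells (log2 fold change -0.998, SE 0.227, adjusted p 0.000316). In thinned cells, 13.9% to 23.1% of endocardium-like cells held a ctsla UMI against 2.26% to 4.66% of erythrocyte-like cells. How much of either came from free RNA was not tested. Against the other classes, ctsla in macrophage-like cells was higher by 0.61 (SE 0.16, adjusted p 0.00172), a call that was lost without cryoinjured 2 (log2 fold change 0.29, adjusted p 0.126).

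**Figure D2:**
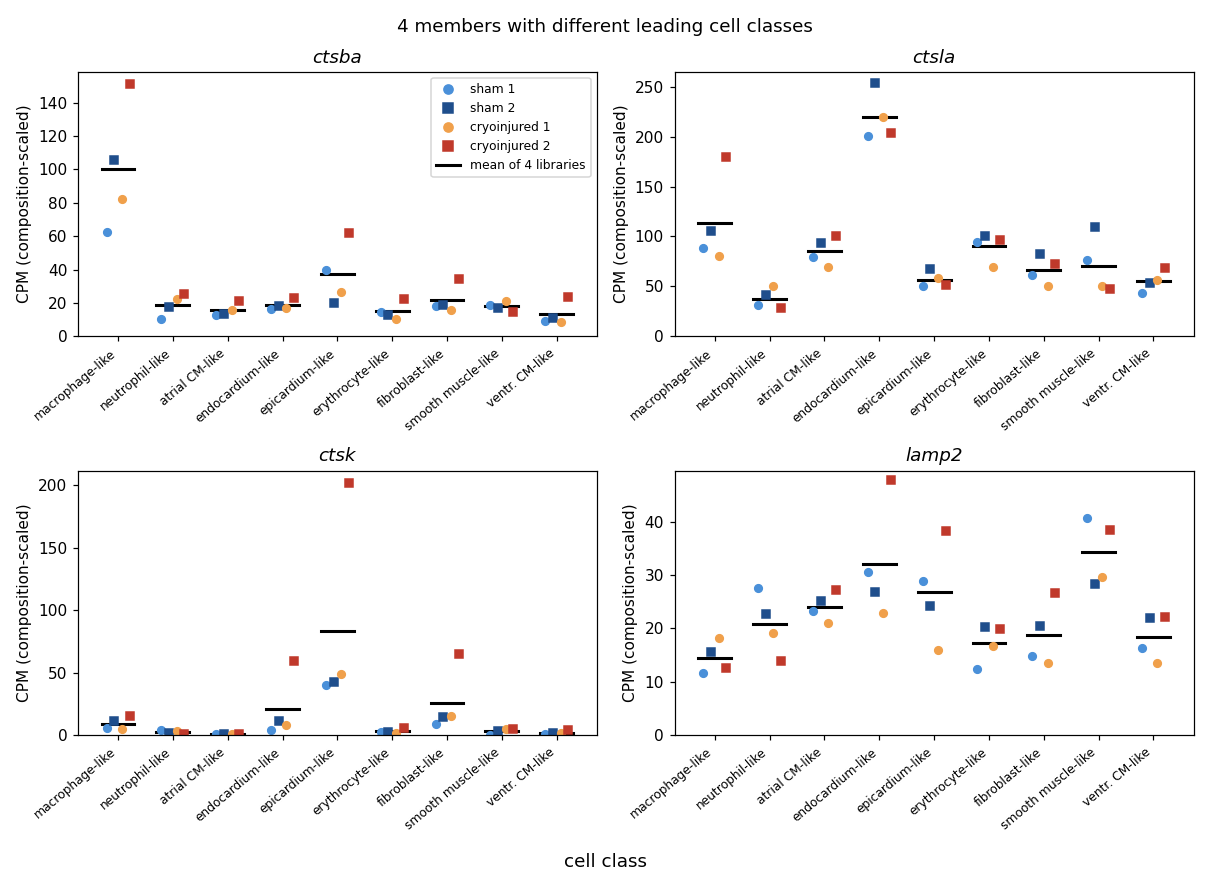
Level of ctsba, ctsla, ctsk and lamp2 (CPM, y axis) in each of the 9 classes, with a point per library. ctsba is highest in macrophage-like cells (62.3 to 151 CPM), ctsla in endocardium-like cells (201 to 254 CPM), ctsk in epicardium-like cells (39.9 to 202 CPM) and lamp2 in smooth muscle-like cells (28.4 to 40.8 CPM).

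ctsk (ENSDARG00000040251) is the gene for cathepsin K, which cleaves collagen and in mammals is the main protease of osteoclasts. It was highest in epicardium-like cells, and was called higher in fibroblast-like and endocardium-like cells too. Epicardium-like cells held 39.9, 42.8, 48.6 and 202 CPM, fibroblast-like cells 8.81, 14.4, 15.5 and 64.5 CPM and endocardium-like cells 4.25, 11.6, 8.198 and 58.9 CPM. In each of these classes cryoinjured 2 was far above the other libraries. The epicardial level was 17.2-fold above the other classes (log2 fold change 4.11, SE 0.20, adjusted p 8.56e-20, edgeR). Macrophage-like cells held 4.88 to 15.6 CPM of ctsk, and their call against the other classes (log2 fold change 0.85, SE 0.28, adjusted p 0.0126) was lost without sham 2 (0.54, adjusted p 0.240) and when called doublets were kept (0.10, adjusted p 0.816).

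The Lamp genes were not among the members that were higher. lamp2, whose heavily glycosylated product lines the lysosome, was highest in smooth muscle-like cells at 40.8, 28.4, 29.7 and 38.5 CPM, and stood at 11.7, 15.5, 18.15 and 12.6 CPM in macrophage-like cells. The macrophage-like values lay below the smooth muscle-like values in each library, with a log2 fold change against all other classes of -0.69 (SE 0.19, adjusted p 0.00259, edgeR), a call that was lost without the composition scaling (-0.36, adjusted p 0.185), where the median of all genes moved from -0.08 to 0.26. lamp1 was highest in atrial cardiomyocyte-like cells at 5.23, 9.52, 8.83 and 11.99 CPM, and did not pass in macrophage-like cells (log2 fold change -0.48, SE 0.25, adjusted p 0.12). The cysteine protease gene ctsf was lower in macrophage-like cells (log2 fold change -1.07, SE 0.28) and was called higher in epicardium-like cells (1.42, SE 0.21) and endocardium-like cells (0.98, SE 0.19).

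**Figure D3:**
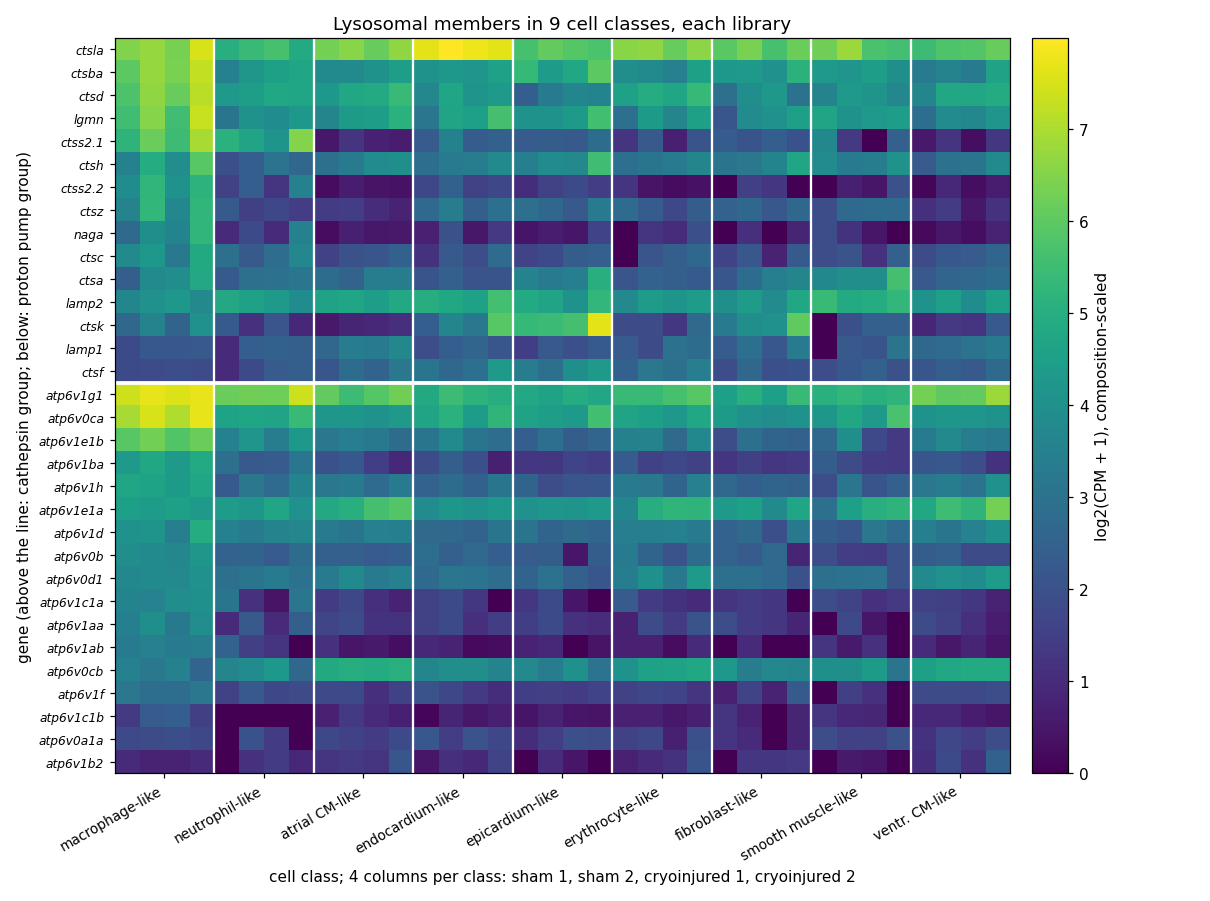
Level of each of the 32 tested members (rows) in each of the 9 classes, with a column per library, coloured by CPM on the log2 scale. Of the 32 members, 21 have their highest mean over the 4 libraries in macrophage-like cells.

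In the proton pump, the 13 genes that were higher in macrophage-like cells encoded stalk and head subunits of V1 as well as ring subunits of V0. atp6v1g1, subunit G of the stalk, gave the most UMIs of the pump genes in this class (3484) and was at 167, 205, 191 and 210.2 CPM, against 70.4, 76.0, 74.3 and 165 CPM in neutrophil-like cells. The lowest macrophage-like value was close to the highest neutrophil-like value. atp6v1g1 was 4.25-fold above the other classes (log2 fold change 2.09, SE 0.13, adjusted p 5.55e-21, edgeR).

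The c subunit forms the ring that turns in the membrane, and its 2 genes differed between macrophage-like cells and cardiomyocytes in opposite directions. UMIs were read at the end of the transcript, so shares within a pair carry no term for transcript length. atp6v0ca (ENSDARG00000057853) was at 121, 180.2, 131 and 204 CPM in macrophage-like cells and at most 50.4 CPM in a library of the 3 next classes. atp6v0cb was at 10.5, 8.15, 10.5 and 5.12 CPM in macrophage-like cells and at 27.7, 30.2, 28.9 and 33.0 CPM in atrial cardiomyocyte-like cells. The levels of each gene did not overlap between these classes. In macrophage-like cells atp6v0ca was higher by 2.84 (SE 0.13, adjusted p 4.06e-28) and atp6v0cb lower, with a log2 fold change of -0.97 (SE 0.21, adjusted p 0.000111, edgeR). atp6v0ca gave 94.5% ± 2.60 (SD, n = 4) of the UMIs of the pair in macrophage-like cells, 36.6% ± 1.28 in atrial and 39.1% ± 2.95 in ventricular cardiomyocyte-like cells, and 69.7% ± 13.5 in neutrophil-like cells. In thinned cells, 15% to 23.6% of macrophage-like cells and 0.528% to 1.05% of erythrocyte-like cells held an atp6v0ca UMI.

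The E subunit, part of the stalk that holds the head in place, showed this division only in part, as atp6v1e1a was not called lower in macrophage-like cells. atp6v1e1b was at 59.5, 78.1, 55.8 and 72.2 CPM in macrophage-like cells and at 10.5, 17.2, 9.20 and 18.2 CPM in neutrophil-like cells, the next class (log2 fold change over all other classes 3.11, SE 0.15, adjusted p 8.39e-27, edgeR). atp6v1e1a was at 21.9, 19.8, 22.3 and 19.1 CPM in macrophage-like cells and at 26.5, 44.3, 35.8 and 79.2 CPM in ventricular cardiomyocyte-like cells. Among the classes tested, atp6v1e1b was thus set apart in macrophage-like cells. There atp6v1e1a did not pass (log2 fold change -0.20, SE 0.20, adjusted p 0.428, edgeR), and its sign turned without composition scaling (0.12, with the same shift of all genes). atp6v1e1b gave 75.9% ± 4.20 (SD, n = 4) of the UMIs of the pair in macrophage-like cells and 19.5% ± 6.92 in ventricular cardiomyocyte-like cells. In the unnamed cluster led by cd74a, which entered no test, its share was 42.1%, 49.7%, 91.3% and 83.2% in the same order of libraries. Both cryoinjured values lay above the macrophage-like range of 71.4% to 79.8%, that of cryoinjured 1 from 23 UMIs of the pair. atp6v1e1a was higher in ventricular (log2 fold change 0.85, SE 0.17) and atrial cardiomyocyte-like cells (0.70, SE 0.17) than in the other classes.

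The A and B subunits alternate in the head that splits ATP. For B, atp6v1ba was at 19.1, 27.0, 18.8 and 28.4 CPM in macrophage-like cells and at most 7.80 CPM in neutrophil-like cells (log2 fold change over all other classes 3.37, SE 0.20, adjusted p 2.33e-22, edgeR). In macrophage-like cells its partner atp6v1b2 was at 0.698 to 0.931 CPM, from 1 to 6 UMIs per library, so that atp6v1ba made up 96.5% ± 0.878 (SD, n = 4) of the pair. This lead was not particular to the class. From few UMIs, atp6v1ba gave 83.9% ± 13.6 in neutrophil-like, 85.5% ± 19.5 in epicardium-like and 91.0% ± 10.5 in smooth muscle-like cells. In ventricular cardiomyocyte-like cells it gave 56.5% ± 24.7. atp6v1b2 was called higher in atrial (log2 fold change 0.88, SE 0.27) and ventricular cardiomyocyte-like cells (1.09, SE 0.27).

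For A, both genes were higher in macrophage-like cells, and neither gave most of the UMIs in every library. atp6v1aa was at 9.87, 14.7, 8.37 and 13.97 CPM and atp6v1ab at 8.64, 10.2, 9.07 and 9.31 CPM. atp6v1ab made up 40% to 52% of the pair in macrophage-like cells, from log2 fold changes of 3.86 (SE 0.27) for atp6v1ab and 2.78 (SE 0.23) for atp6v1aa against the other classes. For C, a subunit that is released when V1 and V0 come apart, atp6v1c1a made up 72.8% to 89.0% of the pair in macrophage-like cells, with 11.1, 10.6, 13.96 and 15.1 CPM. It also gave 100% of the pair in neutrophil-like cells, from 1 to 9 UMIs per library, and 63.6% to 72.2% in ventricular cardiomyocyte-like cells.

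**Figure D4:**
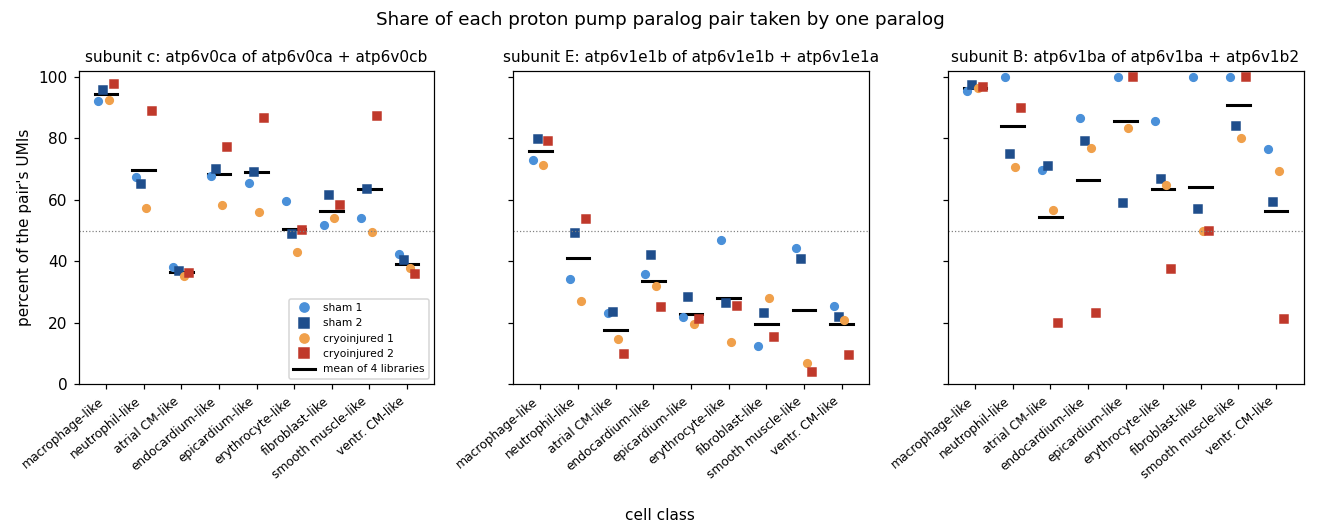
Share of the UMIs of a paralog pair (percent, y axis) given by atp6v0ca, atp6v1e1b and atp6v1ba in each class, with a point per library. In macrophage-like cells the shares are 92.04% to 97.6%, 71.4% to 79.8% and 95.4% to 97.5%.

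Of the other pump subunits, atp6v1h was at 25.0, 23.9, 19.5 and 24.9 CPM in macrophage-like cells and was 3.81-fold above the other classes. Subunit H is known from yeast to curb ATP splitting in the free V1 part. The rotor subunit gene atp6v1d was at 15.7, 16.5, 9.77 and 29.6 CPM (log2 fold change 1.30, SE 0.17), and macrophage-like cells were its highest class in 3 of 4 libraries. atp6v0b, which encodes a further ring protein, was at 14.5, 13.04, 11.9 and 17.9 CPM (1.92, SE 0.20). The V0 a subunit gene atp6v0a1a, whose product lies beside the ring on the protons' path, did not pass (0.50, SE 0.33, adjusted p 0.224) and was at 2.33 to 2.79 CPM.

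Set directly against neutrophil-like cells, the other phagocyte class, 23 members were higher in macrophage-like cells, 0 were lower and 9 did not pass. Over all genes 11.5% were called, 7.82% higher and 3.69% lower. The largest of these differences with UMIs on both sides were ctsz (log2 fold change 3.27, SE 0.40), ctss2.2 (2.71, SE 0.38) and lgmn (2.55, SE 0.29). atp6v1c1b had 0 UMIs in neutrophil-like cells and is given no fold. In neutrophil-like cells, ctss1 was seen from 1, 2, 12 and 12 UMIs (0.951, 1.23, 3.94 and 10.4 CPM), below the filter for testing. Against endocardium-like cells 23 members were higher, 4 lower (ctsla, ctsf, lamp2 and atp6v0cb) and 5 did not pass, where 14.9% of all genes were higher and 16.3% lower (31.2% called).

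Within the other classes fewer members were higher, each class being set against the mean of the rest. Ventricular cardiomyocyte-like cells had 6 members higher and 14 lower, where 23.7% of all genes were higher and 30.4% lower (54.1% called), and 11 of the 14 were of the cathepsin group. Atrial cardiomyocyte-like cells had 5 higher and 9 lower, against 21.9% and 24.4% of all genes (46.4% called). In both, the members that were higher included atp6v0cb, atp6v1e1a, atp6v1b2 and lamp1.

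Epicardium-like cells had 6 members higher, all of the cathepsin group, and 9 lower, of which 7 were proton pump genes, against 22.8% and 13% of all genes (35.8% called). Among the higher were ctsk, ctsf, ctsa, ctsh and ctsba. Endocardium-like cells had 6 cathepsin group members higher and 4 members lower, against 22% and 6.56% of all genes (28.6% called). Beside ctsla and ctsf the higher ones were ctsk (log2 fold change 1.59, SE 0.23), ctss2.2 (1.30, SE 0.27), ctsz (0.79, SE 0.21) and lamp2 (0.63, SE 0.16).

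Fibroblast-like cells had only ctsk higher (log2 fold change 2.197, SE 0.265) and 4 members lower, against 8.67% and 1.55% of all genes (10.2% called). In smooth muscle-like cells ctsa (1.501, SE 0.23) and lamp2 (0.72, SE 0.18) were higher and 2 pump genes lower, against 7.42% and 1.37% of all genes (8.78% called). Neutrophil-like cells had 5 members higher and 4 lower, against 11.3% and 6.07% of all genes (17.3% called), with ctss2.1, ctss2.2, naga and ctsc among the higher. Erythrocyte-like cells had 2 higher and 4 lower, against 10.7% and 9.91% of all genes (20.6% called).

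As a share of all UMIs, without composition scaling, the cathepsin group took 0.0519%, 0.0961%, 0.0447% and 0.0997% in macrophage-like cells of sham 1, sham 2, cryoinjured 1 and cryoinjured 2. The proton pump group took 0.0721%, 0.0928%, 0.0552% and 0.0666%. In erythrocyte-like cells the cathepsin group took 0.00668% to 0.0112%. The endocardium-like share of the cathepsin group, 0.0387% to 0.0625%, overlapped that of macrophage-like cells, whereas the macrophage-like pump share lay above that of every other class tested in all libraries.

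Other lysosome genes, from lists that the symbol rule did not take, were counted in the same contrast of macrophage-like cells against the 8 other classes. There 23% of all genes were higher and 19.1% lower. Unlike the members, the genes of these lists were not left out of the clustering. They could take part in setting the classes, so their counts are a description and no independent check. Of 23 tested hydrolase genes 18 were higher and 0 lower, with a median log2 fold change of 1.59, and of 19 tested membrane, transport and sorting genes 15 were higher and 1 (laptm4a) was lower, with a median of 1.07. Of 10 tested partners of the pump, 7 were higher and 1 lower. The V0 a subunit gene tcirg1b, whose human form is the a3 subunit of osteoclasts and which the rule misses by its symbol, was higher by 4.61 (SE 0.20), and rnaseka by 3.09 (SE 0.21) while its paralog rnasekb was lower (log2 fold change -0.90, SE 0.19). Of 5 tested cathepsin inhibitors, 3 were higher and cst3, the gene for secreted cystatin C, was lower (-0.73, SE 0.19). A last list held the MiT/TFE transcription factors, which switch lysosomal genes on, together with related regulators of either direction. Of its 11 tested genes, 6 were higher and 1 lower. Of the factors, tfec had a log2 fold change of 5.71 (SE 0.34) and tfe3a of 1.20 (SE 0.27), and tfeb, at 0.25 (SE 0.22, adjusted p 0.386, edgeR), did not pass.

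Cryoinjured and sham libraries were then compared within each class, the question of the study's design. In macrophage-like cells 0 of 31 tested members were called, against 0% of the 5298 genes tested (edgeR quasi-likelihood test, Benjamini-Hochberg adjustment). No member had an unadjusted p under 0.05, which 6.17% of all genes had. By DESeq2, too, 0 members were called. The design of 2 against 2 libraries leaves such a test little reach.

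The values in macrophage-like cells show how the libraries lay. For ctsba (62.3 and 106 CPM in sham, 82.4 and 151 CPM in cryoinjured), ctsd, lgmn, ctss2.1 and ctsh, sham 2 and cryoinjured 2 were the high libraries and sham 1 and cryoinjured 1 the low, so the groups overlapped. The log2 fold change of cryoinjured over sham was 0.45 (SE 0.44) for ctsba, 0.44 (SE 0.48) for ctsd and 0.55 (SE 0.60) for lgmn. The pump genes were closer to level, with 0.13 (SE 0.39) for atp6v0ca, 0.09 (SE 0.33) for atp6v1g1 and -0.12 (SE 0.36) for atp6v1e1b. The median over the 15 cathepsin group members was 0.39, with 14 above 0, that over the 16 pump members was -0.01 and that over all genes -0.01. Over the 16 members named in macrophage-like cells, of both groups, the median was 0.13, and without cryoinjured 2 it was -0.27, against -0.06 over all genes. Without composition scaling it was -0.37, where the median of all genes was -0.51. Of these 16 members, 12 changed sign without cryoinjured 2 and 9 without composition scaling. All members share the same libraries, so the number above 0 is no count of independent results.

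**Figure D5:**
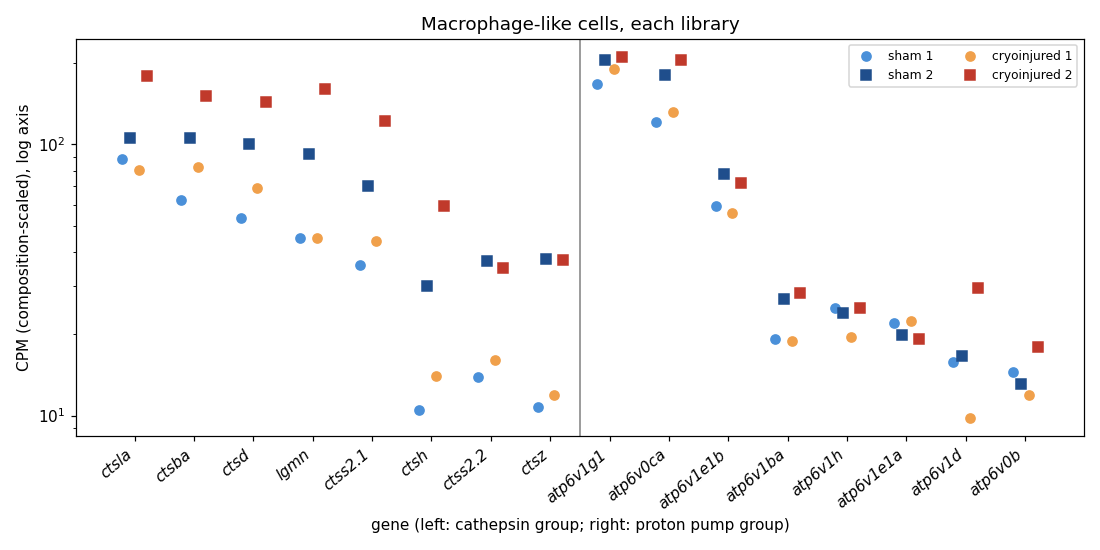
Level (CPM, log axis) of the 8 highest cathepsin group members and the 8 highest proton pump members in macrophage-like cells of each library (sham in blue, cryoinjured in orange and red). For most of the cathepsin group, sham 2 and cryoinjured 2 lie above sham 1 and cryoinjured 1, so the groups overlap.

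On the composition-scaled CPM, the groups did not overlap for 3 of 31 tested members in macrophage-like cells, against 34.2% of all genes in either direction. These were ctsa, atp6v1c1a and ctsf, all with both cryoinjured libraries the higher. The scaling factors, by which CPM are divided, were 1.43 and 1.49 in sham and 1.06 and 0.976 in cryoinjured libraries. As a plain share of UMIs the groups overlapped for ctsa, and for atp6v1c1a both cryoinjured libraries were the lower. For ctsa the levels were 4.32 and 12.8 CPM in sham and 13.96 and 27.2 CPM in cryoinjured (log2 fold change 1.22, SE 0.56, adjusted p 0.838, edgeR). When cryoinjured 1 was left out, which leaves 1 cryoinjured library whose spread is taken to be that of the sham libraries, 3 of 31 members were called, against 3.84% of all genes: naga (log2 fold change 1.76, adjusted p 0.0017), ctsa (1.54, adjusted p 0.0146) and ctsh (1.46, adjusted p 0.0161). The part that cryoinjured 2 alone plays in these calls cannot be told apart from injury.

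The summed shares of UMIs were compared as well. By an exact two-sided permutation test of 2 against 2 libraries, whose smallest p is 0.33, the cathepsin share in macrophage-like cells gave p = 1 (mean 0.0740% in sham and 0.0722% in cryoinjured) and the pump share gave p = 0.33, both cryoinjured libraries being below both sham libraries on this unscaled share. On the composition-scaled CPM the means were 512 in sham and 723 in cryoinjured for the summed cathepsin group and 572 and 604 for the summed pump group, both higher in cryoinjured, and neither group's libraries lay apart on that scale. Leaving out the scaling moves the median of all genes in this class from -0.01 to -0.51. Macrophage markers moved with the cathepsins, at 0.307% and 0.469% of UMIs in sham 1 and sham 2 and 0.253% and 0.515% in cryoinjured 1 and cryoinjured 2, and their part was not tested.

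In the 8 other classes 0 members were called between groups. The only gene of any kind called was 1 in erythrocyte-like cells, 0.0242% of those tested. An unadjusted p under 0.05 was seen for 4 of 29 tested members in atrial cardiomyocyte-like cells, against 9.05% of all genes, and for 2 of 21 in epicardium-like cells, against 11%. In endocardium-like, fibroblast-like, smooth muscle-like and ventricular cardiomyocyte-like cells 1 member each had such a p, against 3.17%, 6.04%, 8.72% and 5.98% of all genes. In neutrophil-like and erythrocyte-like cells 0 members had, against 0.857% and 4.96%. ctsk was the member with such a p in 3 classes, with a log2 fold change of 2.01 (SE 0.84, adjusted p 0.999) in endocardium-like, 1.499 (SE 0.64, adjusted p 0.44) in epicardium-like and 1.62 (SE 0.63, adjusted p 0.739, edgeR) in fibroblast-like cells. On the composition-scaled CPM of epicardium-like and fibroblast-like cells, ctsk of both cryoinjured libraries lay above both sham libraries. The groups did not overlap there for 45.2% and 39.5% of all genes in either direction. Scaling factors in epicardium-like cells were 0.977 and 1.29 in sham and 0.601 and 0.581 in cryoinjured libraries, and in fibroblast-like cells 1.21 and 1.30 against 0.904 and 0.896. As a plain share of UMIs the groups overlapped for ctsk in both classes, with cryoinjured 2 alone high. In endocardium-like cells the groups overlapped on the scaled CPM too, and cryoinjured 2 alone was high (58.9 CPM, against 4.25 to 11.6 CPM in the other libraries). Without cryoinjured 1, ctsk passed in all 3 classes (log2 fold change 2.85, 2.19 and 2.33, adjusted p 0.000103, 0.00301 and 0.0026), where 1.28%, 5.84% and 2.45% of all genes were called, and without cryoinjured 2 it fell to 0.12, 0.32 and 0.39. In endocardium-like cells it also passed without sham 2 (2.93, adjusted p 0.0333, edgeR), where 0.371% of all genes were called. atp6v1e1b in smooth muscle-like cells, at 5.44 and 14.9 CPM in sham and 2.41 and 1.48 CPM in cryoinjured, did not pass (log2 fold change -2.51, SE 0.70, adjusted p 0.416, edgeR). Its cryoinjured values rest on 6 UMIs and 1 UMI, and in sham 1 it gave 44.4% of 9 UMIs of the pair. A cluster of 130 cells in this class came to 97.7% from sham 2. The ventricular class held clusters of 5536 cells (88.9% from sham 1) and 5889 cells (77.6% from sham 2). It also held clusters of 4052 cells (69.9% from cryoinjured 2) and 2541 cells (62.9% from cryoinjured 1). A cluster of 1443 cells in the endocardial class came to 71.2% from sham 2. The atrial class held a cluster of 1581 cells led by nppb, 81.5% of them from sham 1. Another cluster led by nppb, of 1522 cells nearest to atrial cardiomyocytes (60.1% from cryoinjured 1), was left unnamed. What these clusters did to the comparisons was not tested.

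The injury effect in macrophage-like cells was also set against its mean in the other classes, in a single fit over 9955 genes. Of 34 tested members 0 differed at an adjusted p under 0.05, as did 0% of all genes, while 5.93% of all genes and 2 members, atp6v1c1a (log2 difference of effects 1.75) and atp6v1ab (1.51), had an unadjusted p under 0.05. A difference in response between macrophage-like cells and other classes was thus not detectable for any member with 2 libraries per group.

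Within macrophage-like cells, those that held a UMI of il1b, tnfa or tnfb, genes of inflammatory cytokines, were compared with those that held none. Each cell was thinned to 1000 UMIs, and 7 cells below that were left out. There were 47, 178, 33 and 94 cells with and 195, 539, 167 and 496 cells without such a UMI in sham 1, sham 2, cryoinjured 1 and cryoinjured 2. In this contrast 19.6% of 1013 genes were called, 10.8% higher (edgeR with library as a covariate). Of 10 members tested, 7 were higher and 0 lower: ctsla, ctsba, lgmn, ctss2.1, ctsz, atp6v0ca and atp6v1ba.

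atp6v0ca was at 319, 506, 424 and 447 CPM in cells with a cytokine UMI, taken as plain CPM of the thinned UMIs, and at 267, 230.1, 144 and 167 CPM in cells without (log2 fold change 1.03, SE 0.19, adjusted p 0.00144). ctsba was at 191, 303, 90.9 and 383 CPM with and at 92.3, 174, 77.8 and 177 CPM without (0.83, SE 0.21, adjusted p 0.012, edgeR). These genes, ctsz and atp6v1ba were higher with a cytokine UMI in 4 of 4 libraries, ctsla and lgmn in 3 and ctss2.1 in only 2. Several of these orders rest on few UMIs. In cryoinjured 1, ctsz had 1 UMI in cells with and 1 in cells without, and ctsba had 3 and 13. In sham 1, atp6v1ba had 2 and 8 UMIs (42.6 against 41.0 CPM). In cryoinjured 1 neither lgmn nor ctss2.1 had a UMI among the 33 cells with a cytokine UMI. Macrophage markers were higher in the same cells in 4 of 4 libraries. They took 0.470% against 0.373%, 0.632% against 0.507%, 0.427% against 0.284% and 0.753% against 0.579% of UMIs. Atrial cardiomyocyte markers were lower there in 4 of 4 libraries, at 0.272% against 0.320%, 0.208% against 0.222%, 0.139% against 0.204% and 0.128% against 0.130%. Ventricular cardiomyocyte markers were lower except in sham 2. The part of these markers in the difference was not tested. The number of members called fell to 1 without sham 2 and to 1 without cryoinjured 2, and to 0 with no filter on low counts, while the share of all genes called fell from 19.6% to 5.56%, 5.46% and 1.75%. With a library left out the log2 fold change stayed between 0.71 and 1.02 for ctsba and between 0.92 and 1.22 for atp6v0ca.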

How the data were processed

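The deposited tables held raw UMI counts per gene and cell, which the authors made with Cell Ranger 4.0.0 against GRCz11, per the labels and the methods, as whole-number counts with no normalisation. Cells were kept with at least 500 UMIs, 200 genes and at most 50% mitochondrial UMIs, and the top-scoring cells were left out as doublets at 0.8% per 1000 cells (9.21% to 12.7% of cells). Clustering (scanpy 1.11.5) left out mitochondrial, hemoglobin and member genes and used 2000 variable genes, 30 components, 15 neighbours and Leiden resolution 1.5. The resolution was set after the clusters were seen and before member values were. A cluster was named from at least 3 markers. Sums of counts for each class of a library were tested with edgeR 4.0.16 (quasi-likelihood, TMM scaling, Benjamini-Hochberg adjustment over all genes tested), with library as a covariate between classes and none between groups. Groups were also compared with DESeq2 1.42.0.

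Members and gene lists were chosen with earlier results of these data known. Members named with values were the 8 highest of each group in macrophage-like cells, those at 50 CPM or more in another leading class, paralog pairs with 10 or more UMIs per library, and any past a test between groups. Naming of others followed after their values were seen. Reads that fit paralogs equally may be lost in counting. The fits were also run on simulated counts with a set spread and no library effect, so that run says nothing on differences between these libraries. A search of promoters for motifs was not done, as no sequence was used here. Of the member identifiers, 42 of 43 matched the name table; the entry lamp1 is named lamp1b there.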

Additional observations from a re-analysis of the deposited data

How the results depend on the processing

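Across all alternatives for macrophage-like cells against the mean of other classes (each library left out, doublets kept, a per-cell marker gate, a mitochondrial limit of 30%, Leiden resolution 2, no composition scaling, no filter on low counts, no library term, DESeq2), 23 to 26 members were higher and 2 to 3 lower. Leiden resolution 2 and the alternatives for the direct class contrasts and for the cytokine comparison were chosen after seeing the data. Without composition scaling the median of all genes moved from -0.08 to 0.26 and atp6v1e1a turned from -0.20 to 0.12. ctsk lost its call also at Leiden resolution 2 (0.64) and with no library term (0.73), and ctsf under the marker gate (-0.64). Against neutrophil-like cells the members lower were 1, and not 0, with doublets kept, with the 30% mitochondrial limit and with no filter. Against endocardium-like cells 2 to 3 were lower when a library was left out, and 4 otherwise. The cathepsin group took 0.112% of UMIs in macrophage-like cells under the marker gate, against 0.0731% in clusters. The cause of these shifts was not tested.

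Between cryoinjured and sham, leaving out each library in turn gave 0 to 3 member calls in macrophage-like cells, 0 to 1 in neutrophil-like, 0 to 2 in endocardium-like, 0 to 4 in epicardium-like, 0 to 1 in fibroblast-like cells and 0 to 1 for the effect in macrophage-like cells against other classes. The highest count came without cryoinjured 1 in each, where 3.84%, 8.87%, 1.28%, 5.84%, 2.45% and 0.236% of all genes were called. The other call was ctsk without sham 2 in endocardium-like cells. Beside those named in the report, the calls without cryoinjured 1 were ctss2.1 in neutrophil-like cells, atp6v1c1a in endocardium-like cells and ctsa, lgmn and ctsh in epicardium-like cells. With no filter, ctsk was called in endocardium-like cells (1 call). The log2 fold change of ctsh in macrophage-like cells ran from -0.56 without cryoinjured 2, where it turned, to 1.80 without sham 2. In the cytokine comparison 1 to 6 members were called with a library left out and 0 with no filter. With the replicate number as a block, 0 members were called in every class. The numbers mark no shared batch in the labels, and the correlation of deviations of same-numbered libraries was -0.04 in neutrophil-like cells and 0.18 to 0.30 in the 8 other classes. With 2 libraries per group and member levels often under 20 CPM, small differences between groups were beyond reach.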

Other observations

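A cluster of 1605 cells was left unnamed, because only 2 of the dendritic cell markers passed there. Its leading genes included ccl35.1, the dendritic cell marker si:ch211-214p16.1, heat shock genes, and cd74a and cd74b, which encode invariant chains of MHC class II. cd74a was among the leading genes of the macrophage-like cluster too. B lymphocyte markers took 0.225% of the unnamed cluster's UMIs in cryoinjured 2, against 0.00129% to 0.0288% in the other libraries. The unnamed cluster was in no comparison. ctss2.2 stood at 24.0, 19.3, 36.1 and 47.3 CPM in sham 1, sham 2, cryoinjured 1 and cryoinjured 2, and ctss2.1 at 24.8, 22.6, 21.6 and 52.2 CPM. ctss2.1 gave 48.7% ± 7.55 (SD, n = 4) of the UMIs of the pair, below its range of 65.5% to 77.7% in macrophage-like cells and of 85.1% to 94.6% in neutrophil-like cells. ctsba was at 20.8 to 39.2 CPM and ctsla at 43.7 to 57.7 CPM, both below their ranges in macrophage-like cells. The cathepsin group took 0.0248% to 0.0297% of the cluster's UMIs and the proton pump group 0.0218% to 0.0473%. These values are given without a test.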
